A study of Homo sapiens with 24 samples.

Results

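In HepG2 cells, 150 transcripts lost most of their copies in the first 3 h of actinomycin D and then declined far more slowly. They were chosen on the siControl libraries alone. Levels were scaled to the ERCC spike-in, a set of synthetic RNAs added in proportion to total RNA. Of 58676 genes counted, 10214 had a mean of at least 5 CPM (counts-per-million of gene reads) at 0 h, and 2261 of these (22.1%) were at or below 50% of that level at 3 h. After 245 genes with symbols beginning MT-, ZNF or LINC were left out, 2016 genes remained. They were ordered by curvature, the log2 change from 3 to 6 h minus the log2 change from 0 to 3 h, and the 150 highest (7.44% of the 2016) were kept. A transcript that decays at 1 constant rate has a curvature of 0, and a positive value means that loss slowed.

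HepG2 is an established human liver cancer cell line, and actinomycin D blocks transcription, so that what remains of a transcript over time reflects its decay. Cells received a control siRNA without a target (siControl), or 1 of 3 siRNA treatments named for their targets (siIGF2BP1, siIGF2BP2 and siIGF2BP3). IGF2BP1, IGF2BP2 and IGF2BP3 encode a family of RNA-binding proteins that act on the stability of their target transcripts. Each of these 4 conditions was collected at 0, 3 and 6 h of actinomycin D, with 2 libraries in each of the 12 groups. All groups share the parental line and an siRNA transfection, and the knockdowns are transient and partial. The study calls the 2 replicates independent, while the labels do not say whether they came from separate transfections. By the study's methods each transfected plate was re-seeded into 3 plates, so time points may share a transfection. The labels do not link them, and the main fits treat all libraries as separate. The p-values draw on the spread between these libraries, pooled over groups and shared across genes. They can therefore understate a wide difference between the replicates of 1 gene. The targeted transcript was at 17.7% of siControl for IGF2BP1, 23% for IGF2BP2 and 29% for IGF2BP3 in its own knockdown (averaged over time points). Libraries held 31843248 to 74252042 gene reads and 50889 to 119088 ERCC reads. Hepatocyte transcripts were abundant in every library (ALB at 10735 to 17356 CPM), whereas PTPRC, COL1A2 and VIM were at or near 0 and none of the other markers of blood, stromal or endothelial cells exceeded 1.37 CPM.

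Short-lived transcripts commonly encode proteins that a cell needs only for a short time, such as immediate early transcription factors and the feedback inhibitors of signalling pathways. Many carry AU-rich elements in the 3' untranslated region (3'UTR), built on the pentamer AUUUA, which are bound by proteins such as ZFP36 that recruit the deadenylation machinery. The rate of transcript loss after a transcription block is often not constant, and 3 time points give 2 intervals from which a change of rate can be read.

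The genes were short and had few exons, although their transcripts were not shorter than those of the other genes tested. Of the 150 genes, 145 were annotated as protein coding and 4 as lncRNA, and the last, ENSG00000275993, is marked in the annotation as an artefactual copy of another gene and is therefore uncertain. Canonical transcripts had 1 or 2 exons in 58 of the 150 (38.7%), compared with 22.3% of 445 other fast genes, which met the same conditions and were at or below 25% at 3 h in siControl, and 12.01% of the 12868 other genes tested. The median number of exons was 3 in the 150, 5 in the other fast genes and 8 in the other genes tested, and the median gene span was 12678, 23816.5 and 29136 bases, respectively. Median transcript length was 3398 bases, shorter than the 3887.5 of the other fast genes and longer than the 3054 of the other genes tested. Median 3'UTR length was 1457 bases, against 1636 in the other fast genes and 1323 in the other genes tested. The share of A and U in it was 60.6%, near the 61.1% of the other fast genes and above the 57.7% of the other genes tested. These are descriptions of annotated transcripts and were not tested. The other fast genes are not matched to the members in early loss. Their median level at 3 h in the knockdowns was 20.7%, against 10.3% in the members.

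AU-rich words were frequent, as in other fast genes. On the transcript strand of the 3'UTR, the pentamer ATTTA was present in 86.2% of the 145 genes with a 3'UTR, in 84.6% of the other fast genes and in 72.6% of the other genes tested. The heptamer TATTTAT, which contains the pentamer, followed the same order with 49.7%, 47.6% and 35.2%. The Pumilio word TGTANATA was found in 48.3%, 44.5% and 29.7%. The nonamer TTATTTATT, which contains both shorter AU-rich words, was present in 31 of the 145 (21.4%), in 11.9% of the other fast genes and in 9.24% of the other genes tested. In share of genes this was the widest gap to the other fast genes among the 4 words counted. Per kb of 3'UTR, members stood above the other fast genes for the heptamer (0.52 against 0.371), the Pumilio word (0.468 against 0.347) and the nonamer (0.136 against 0.074). The pentamer was closer (2.61 against 2.46). The nonamer of 8 members whose values are described here is printed with 10 bases on either side, 5′ to 3′ on the transcript strand with T for U, and the nonamer in capitals.
ZFP36: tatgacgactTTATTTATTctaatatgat
CSRNP1: ttctctggatTTATTTATTtgttttaact
SOX9: cttgctaaaaTTATTTATTttgtaaggag
PHLDA1: tgatttatgaTTATTTATTagtttttttt
ARID5B: caggactgacTTATTTATTtactagctag
TNFAIP3: gtaattcactTTATTTATTttattacaaa
GDNF: taagttattgTTATTTATTaccgttcact
REL: tgatatataaTTATTTATTttgccctttt

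In the hg38 genome these windows lie in the 3'UTR of the canonical transcript at chr19:39409196-39409224 (ZFP36, plus strand), chr3:39142885-39142913 (CSRNP1, minus strand), chr17:72125498-72125526 (SOX9, plus strand), chr12:76029787-76029815 (PHLDA1, minus strand), chr10:62096116-62096144 (ARID5B, plus strand), chr6:137882298-137882326 (TNFAIP3, plus strand), chr5:37814661-37814689 (GDNF, minus strand) and chr2:60925006-60925034 (REL, plus strand). GDNF holds 2 nonamers, of which 1 is shown, and the other 7 genes hold 1 each. The bases on either side differ between the 8 genes, and a match shows only that these letters are present.

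**Figure D1:**
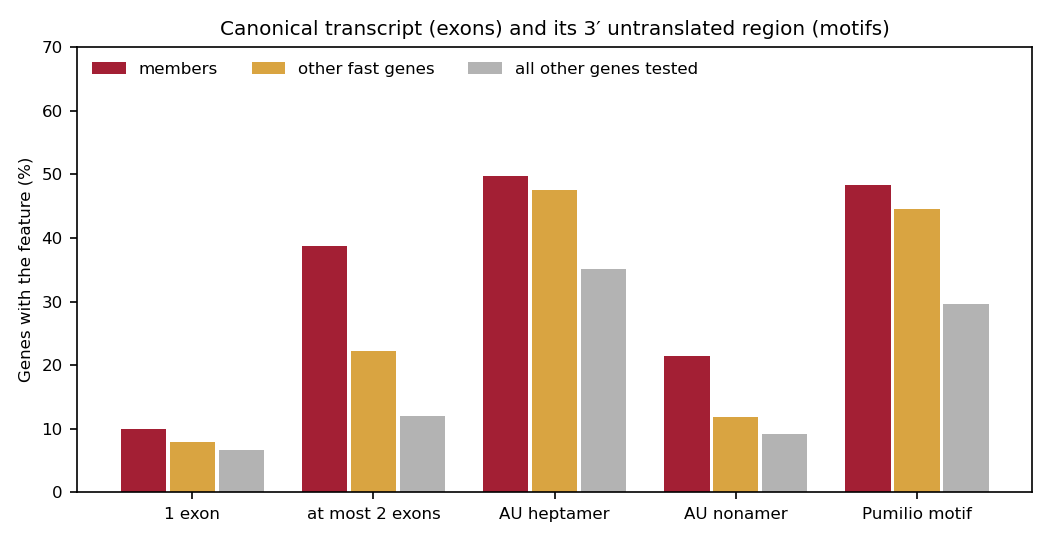
Share of genes (vertical axis, %) with 1 exon, with at most 2 exons, and with the AU-rich heptamer, the AU-rich nonamer or the Pumilio word in the 3'UTR, for the 150 members, the other fast genes and all other genes tested. Members stand above other fast genes for at most 2 exons (38.7% against 22.3%) and for the nonamer (21.4% against 11.9%). In share of genes, though not per kb, they stand close to them for the heptamer and the Pumilio word.

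In siControl, whose values chose the members and are given only as a description, the median member was at 9.31% of its 0 h level at 3 h (range 1.27% to 18.5%) and at 5.15% at 6 h. Had the rate of the first 3 h continued, the median at 6 h would have been 0.87%. Curvature ranged from 2.16 to 5.84, with a median of 2.57. At the edge of the list SPRY4, PRR15 and REL were the last inside (2.16 each), and ELL (2.15), PNRC1 (2.15) and SLC25A25 (2.14) the first outside, so that the boundary separates genes of nearly equal curvature. The 2 siControl libraries at 0 h differed in the ratio of gene to ERCC reads, and the median member was at 107% of the 0 h mean in the first and at 93.3% in the second, as were all genes (106% and 93.6%).

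The 18 knockdown libraries were not used by the rule, and the same course of loss was measured there. Median levels at 3 h were 10.5% in siIGF2BP1, 10.4% in siIGF2BP2 and 10.3% in siIGF2BP3, and at 6 h they were 6.39%, 6.22% and 5.75%. Continuation of the early rate would have left 1.1%, 1.08% and 1.06%. In single libraries the median member lay between 9.40% and 10.8% at 3 h and between 5.54% and 6.81% at 6 h in these knockdowns, whereas the median of all genes lay between 70.8% and 80.5% and between 56.8% and 65.6%.

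**Figure D2:**
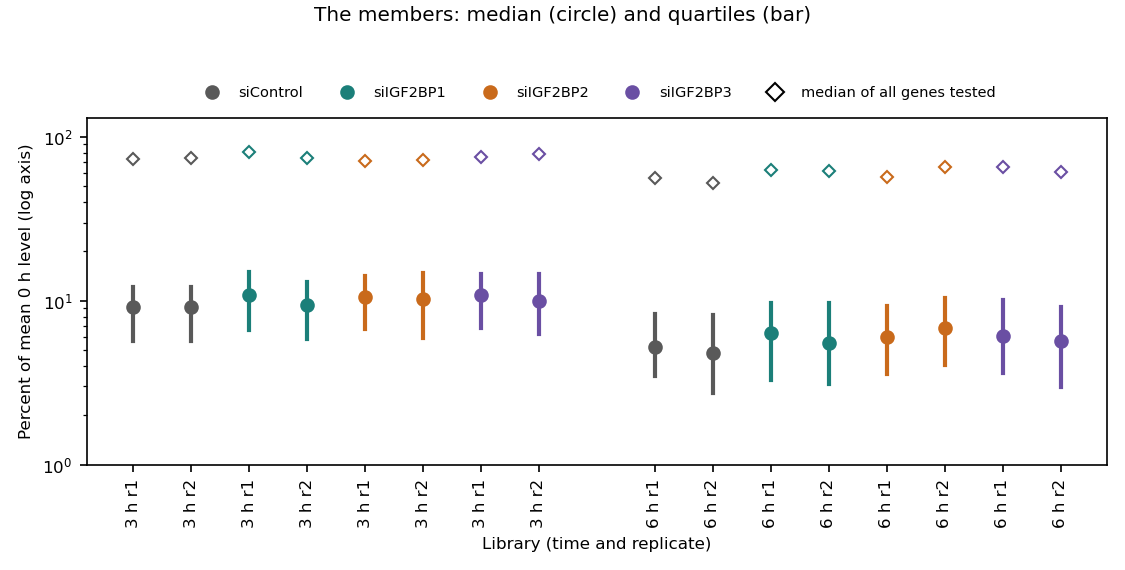
Level of the members as a percentage of the mean 0 h level of the same condition (vertical axis, log scale), for each library at 3 h and 6 h (r1 and r2 are replicates). Circles are the median of the 150 members, bars span their quartiles and open diamonds are the median of all genes tested. The circles lie near 10% at 3 h and between 4.81% and 6.81% at 6 h in all 4 conditions.

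Curvature, averaged over the 3 knockdowns in a fit of 13018 genes by edgeR, was positive with an adjusted p under 0.05 for 150 of the 150, against 26.0% of all genes tested (147 members and 20.4% of all genes with TMM scaling, which sets the typical gene to no change). Its median was 2.52 (range 1.00 to 5.94), against 0.11 over all genes. Within single knockdowns it was called positive for 141 members in siIGF2BP1 (11.4% of all genes), 146 in siIGF2BP2 (20.0%) and 140 in siIGF2BP3 (12.1%). In every one of them 134 members were called, a count that was not made over all genes. Positive curvature is common among fast genes, since 93.7% of the 445 other fast genes were also called, with a median of 1.33. All 150 passed the filter on low counts, but only 128 would have passed it on 3 h or 6 h libraries alone.

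Early loss was large in every member but varied in size. From 0 to 3 h the level fell in all 150 (72.2% of all genes fell), by a median of 3.34 on the log2 scale (changes from -5.88 to -2.05), and in each of the 150 the 6 knockdown libraries at 3 h lay below the 6 at 0 h (60.2% of all genes). That median equals a half-life of 0.899 h if loss within the interval was first order, compared with 1.32 h for the other fast genes, and single members ranged from 0.510 h to 1.46 h.

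Late loss was smaller but mostly still measurable, so that a plateau in the strict sense described few of these transcripts. From 3 to 6 h the level fell for 141 of the 150, or 94.0% (98.7% of the other fast genes and 59.4% of all genes fell). It rose for none in edgeR or DESeq2 (2.77% of all genes rose in edgeR). In either direction 142 members had an unadjusted edgeR p under 0.05, as did 8498 of the 13018 genes tested. The median late change was -0.69, against -0.26 for all genes and -0.94 for the other fast genes, and 36 members fell by at least 1 on the log2 scale. The corresponding half-life was 4.36 h, longer than the 3.19 h of the other fast genes and shorter than the 11.8 h of the other genes tested. Only in 64 of the 150 (42.7%) did the 6 knockdown libraries at 6 h all lie below the 6 at 3 h. This share was 84.0% in the other fast genes and 35.6% in all genes. With TMM scaling, which raises the median late change of all genes to 0, 108 members fell (33.4% of all genes) and IER3 and GDNF rose.

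**Figure D3:**
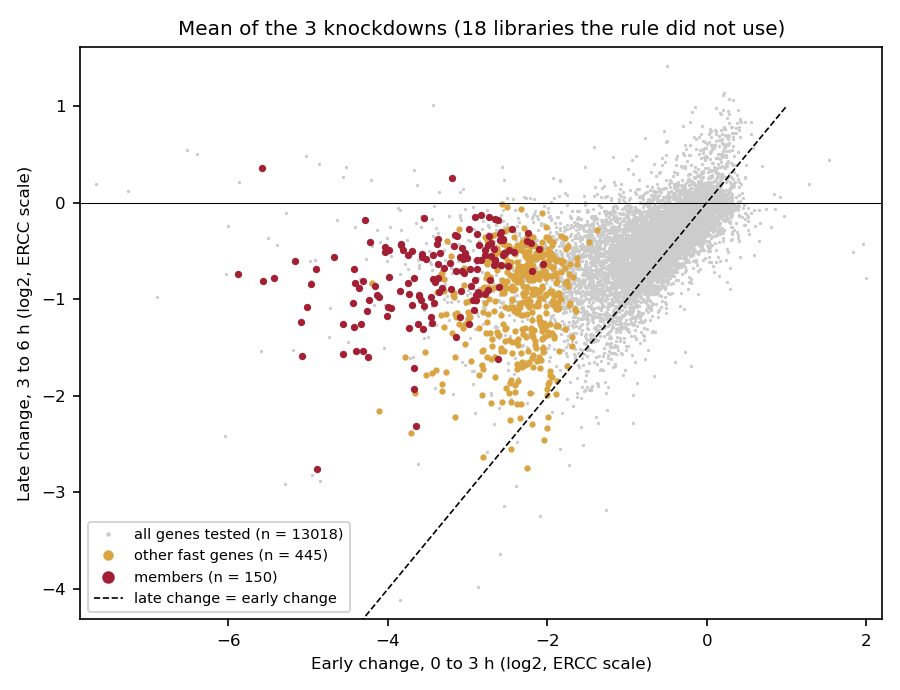
Log2 change from 0 to 3 h (horizontal axis) against log2 change from 3 to 6 h (vertical axis), averaged over the 3 knockdowns on the ERCC scale, for all genes tested (grey), the 445 other fast genes (yellow) and the 150 members (red). The dashed line marks equal change in both intervals. Every member lies above it, and only IER3 and GDNF lie above 0 on the vertical axis.

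The 9 members without a called late change were EGR1, SPRY1, EIF4A1, IER5, IQCC, ZC3H12A, JRKL, GDNF and IER3, with late changes from -0.46 (EGR1, SE 0.219, adjusted p 0.0576) to 0.36 (IER3, SE 0.272, adjusted p 0.239). GDNF, a neurotrophic growth factor, was at 6.63% to 15.0% at 3 h (median 10.6%) and at 9.87% to 16.0% at 6 h (median 13.2%) in the knockdown libraries, so that the times overlapped. Its late change was 0.26 (SE 0.186, adjusted p 0.224), or 0.47 (adjusted p 0.0472) without siIGF2BP1 replicate 2 at 3 h. EIF4A1, which encodes a translation initiation helicase, had 6.1 CPM at 0 h in siControl. It shares exons on the same strand with 5 other genes, and 20 members share exons in this way with at least 1 gene. Its row may therefore not hold all of its reads, and its values may not describe the EIF4A1 transcript as a whole. In 59 members, 12 of them among these 20, an exon overlaps a gene on the opposite strand.

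Immediate early genes, which are induced within minutes of a stimulus, were the list with most members. Of 17 tested, 16 met the level and 3 h conditions and 8 were among the 150 (IER3, EGR1, JUNB, MYC, IER5L, IER5, JUN and IER2). Curvature in the knockdowns was called positive in 15 of the 17 and negative in 1, with a median of 1.77. For this and the lists below, 26.0% of the 13018 genes tested were called positive and 330 genes negative. IER3, which encodes a stress-inducible regulator of cell survival, had the highest rank (chromosome 6, 30743199 to 30744548, minus strand, in hg38). In siControl it was at 1.57% and 1.54% at 3 h and at 1.49% and 1.46% at 6 h. In the knockdowns it ranged from 0.81% to 3.36% at 3 h (median 2.14%) and from 1.63% to 4.68% at 6 h (median 2.51%). Times overlapped, and both siIGF2BP1 libraries were higher at 6 h (3.66% and 3.04%) than at 3 h (2.06% and 0.81%). Its curvature was 5.94 (SE 0.411, adjusted p 2.33e-45), resting on as few as 4 reads in a library at 3 h (siIGF2BP1 replicate 2) and 8 at 6 h.

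MYC, a transcription factor that drives growth, was measured more precisely. It was at 2.80% and 2.73% at 3 h and at 1.81% and 1.27% at 6 h in siControl. Knockdown libraries ranged from 2.75% to 3.89% at 3 h and from 1.65% to 2.12% at 6 h, without overlap. The late change was -0.84 (SE 0.075, adjusted p 6.31e-28), and curvature was 4.13 (SE 0.119, adjusted p 1.38e-256). EGR1, a zinc finger factor, was at 3.78% to 7.38% at 3 h and at 2.34% to 6.83% at 6 h, with wide overlap, and its curvature was 3.58 (SE 0.340). JUNB, an AP-1 subunit, was at 2.99% to 7.05% at 3 h. At 6 h it stood at 9.86% in siIGF2BP2 replicate 1 and at no more than 1.30% in the other 5 knockdown libraries, so that its curvature of 5.29 in siIGF2BP2 rests on that library.

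Feedback inhibitors formed another group. Of 14 tested genes that restrain MAP kinase signalling, 12 met the conditions, 4 were members (DUSP6, SPRY2, SPRY1 and SPRY4) and 11 had a called positive curvature, with a median of 1.78. DUSP6, the phosphatase that inactivates ERK (chromosome 12, 89347235 to 89352501, minus strand), was at 1.96% and 1.75% at 3 h and at 1.84% and 0.99% at 6 h in siControl. In the knockdowns it was at 1.81% to 4.07% at 3 h (median 2.69%) and at 0.62% to 3.25% at 6 h (median 1.79%). The late change was -0.61 (SE 0.164, adjusted p 4.83e-04), although libraries of the times overlapped. SPRY1, which blunts receptor tyrosine kinase signalling, retained more, with 12.8% to 21.7% at 3 h and 11.1% to 20.0% at 6 h.

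Fewer NF-kB feedback genes and chemokines met the conditions (6 of 16 tested), and 3 were members. Curvature was called positive for 8 of the 16, with a median of 0.48. NFKBIA, the inhibitor that holds NF-kB in the cytoplasm (chromosome 14, 35401079 to 35404749, minus strand), was at 1.85% to 3.10% at 3 h (median 2.29%) and at 0.95% to 1.94% at 6 h (median 1.34%). Its curvature was 4.65 (SE 0.146, adjusted p 1.22e-219). TNFAIP3, a ubiquitin-editing enzyme that ends NF-kB signalling, was at 13.9% to 18.7% at 3 h and at 11.6% to 13.4% at 6 h, without overlap, and its late change was -0.39 (SE 0.063). ZC3H12A, an endoribonuclease that degrades cytokine transcripts, was at 11.4% to 21.7% and 10.4% to 16.8%, and its late change was -0.14 (SE 0.117, adjusted p 0.286). TNFAIP3 and ZC3H12A thus kept a larger share of their 0 h level at both times than NFKBIA did.

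Among inhibitors of other receptors, SOCS1, a suppressor of cytokine signalling, was the only member of 6 SOCS-type genes tested, all of which had a called positive curvature (median 1.62). Of 13 tested BMP and TGF-beta response genes 10 were called positive (median 1.33), and BAMBI, ID1 and SMAD7 were members. ID1, an inhibitor of helix-loop-helix factors, had 588 reads on average at 6 h in the knockdowns and moved from 7.80% to 10.0% at 3 h to 4.66% to 6.69% at 6 h, without overlap (curvature 2.93, SE 0.095). BAMBI, a pseudoreceptor of the TGF-beta family, was at 1.63% to 5.53% at 3 h and at 0.24% to 1.03% at 6 h. Its late change of -2.75 (SE 0.369, adjusted p 3.90e-13) rests on a mean of 2.67 reads at 6 h, and its curvature of 2.14 (SE 0.699) had an adjusted p of 0.00993, which rose to between 0.0624 and 0.068 without siIGF2BP2 replicate 2 at 6 h, siIGF2BP3 replicate 1 at 3 h or either siIGF2BP3 library at 6 h. HES1, a Notch-responsive repressor, was the only member of 8 Notch and HES genes tested, of which 3 were called positive (median 0.27).

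**Figure D4:**
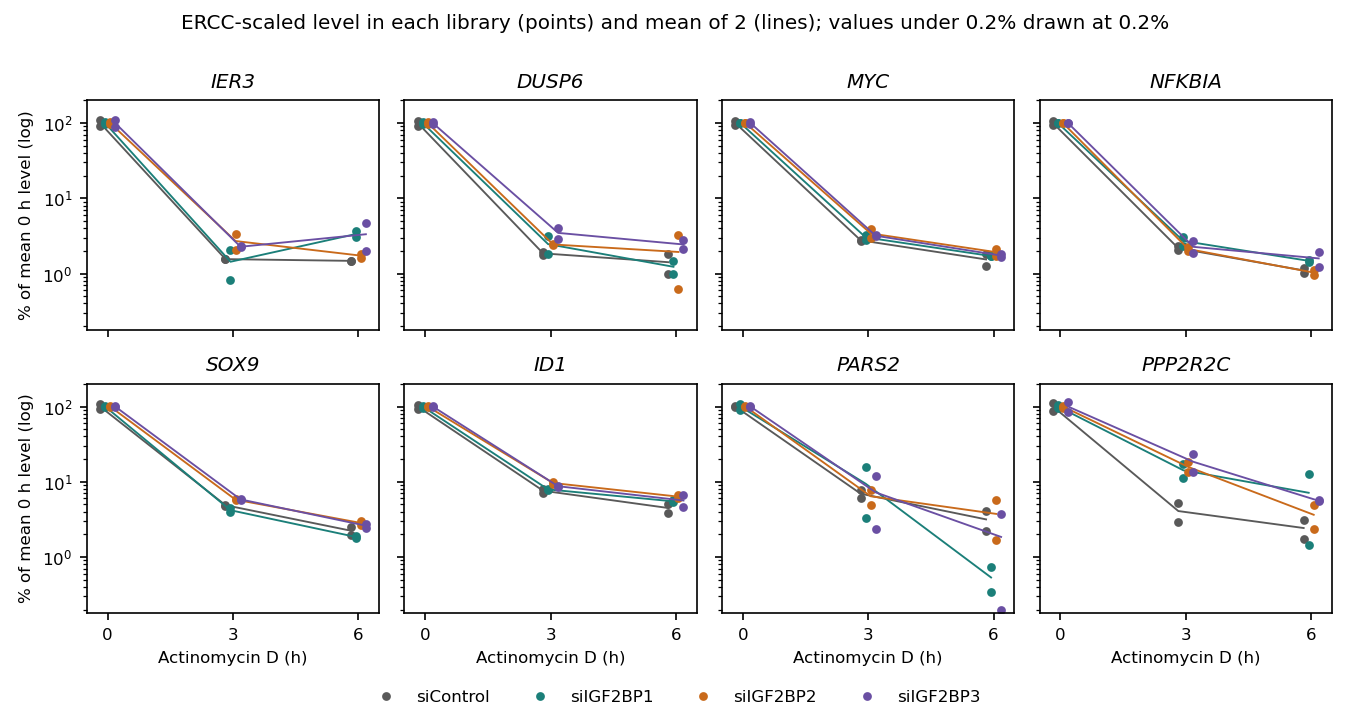
Level of 8 members as a percentage of the mean 0 h level of the same condition (vertical axis, log scale) against hours of actinomycin D (horizontal axis). Points are single libraries, shifted sideways by condition, and lines join means of 2. MYC, NFKBIA, SOX9 and ID1 follow nearly the same bent course in all 4 conditions, whereas single libraries of PARS2 and PPP2R2C at 6 h are far apart.

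Transcription factors that set hepatocyte identity were also represented. Of 22 tested, 17 met the conditions, 18 had a called positive curvature (median 0.64) and 4 were members: NR0B2, a nuclear receptor that represses bile acid synthesis, and the pioneer factors FOXA1, FOXA2 and FOXA3. FOXA1 was at 4.51% to 5.84% at 3 h and at 2.16% to 3.16% at 6 h (late change -1.01, SE 0.068), and its curvature of 3.23 (SE 0.110) was among the more precise. FOXA2 was at 6.45% to 9.91% and 4.55% to 6.60%, with a curvature of 3.02 (SE 0.123). On the list of SOX, FOX and other developmental factors 20 of 25 were called positive and 1 negative (median 1.10). SOX9, IRF2BP2, FOXQ1, FOXC1 and FOXO3 were members. SOX9, a factor of biliary and progenitor cells, was at 3.95% to 5.92% at 3 h and at 1.78% to 3.00% at 6 h, with a late change of -1.12 (SE 0.059, adjusted p 1.74e-79). Its 6 h libraries all lay below its 3 h libraries.

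Of 17 clock genes tested 12 were called positive (median 0.64), and the repressors BHLHE40, NFIL3 and NR1D1 were members. NFIL3 fell from 5.49% to 7.92% at 3 h to 3.43% to 4.07% at 6 h. Of 9 KLF genes tested 7 were called positive (median 1.48), and KLF10, KLF11 and KLF6 were members. KLF10, a TGF-beta-inducible repressor, was at 4.38% to 9.29% and 3.26% to 5.23%. In the stress response list 10 of 14 were called positive and 1 negative (median 1.55), with TRIB1, DDIT4 and DDIT3 as members. TRIB1, a pseudokinase, was at 1.56% to 2.75% at 3 h and at 1.00% to 1.53% at 6 h, and its curvature was 4.75 (SE 0.220, adjusted p 4.87e-101). DDIT4, an inhibitor of mTORC1, was at 1.76% to 4.198% and 0.95% to 1.98% (curvature 3.86, SE 0.236).

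Transcripts of the AU-rich element binding proteins ZFP36 and ZFP36L2 were themselves among the 150. Their list also holds recruiters of CCR4-NOT, a deadenylation complex. Of 17 genes tested on it 13 were called positive (median 0.58), and ZFP36, BTG1 and ZFP36L2 were members. ZFP36, whose own 3'UTR holds the nonamer printed above, was at 3.75% to 6.92% at 3 h (median 5.25%) and at 2.41% to 5.71% at 6 h (median 4.21%), with a late change of -0.41 (SE 0.187, adjusted p 0.0468). ZFP36L2 was at 6.19% to 9.72% and 3.09% to 4.83%, without overlap. CSRNP1, a nuclear factor with the nonamer, was at 3.09% to 4.58% and 1.00% to 4.51%.

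Coactivators and chromatin regulators were called positive in 14 of 19 and negative in 1 (median 0.78), with CITED2 and ARID5B as members. CITED2, which competes with HIF1A for its coactivators, was at 1.04% to 2.21% at 3 h and at 0.40% to 1.66% at 6 h, and its curvature was 5.14 (SE 0.207, adjusted p 1.77e-133). The p53 target list had 13 of 22 called positive (median 0.89) and BTG1 and PLK2 as members. CLK1, a kinase of splicing factors, was the only member of 18 genes on the SR and CLK list (5 called positive, median 0.06). It was at 14.0% to 18.3% at 3 h and at 12.1% to 16.5% at 6 h, and its late change of -0.17 (SE 0.066, adjusted p 0.0192) was among the smallest that were called. SNHG12 was the only member of 24 snoRNA host genes, of which 19 were called positive (median 0.68). The lists of 14 BCL2 family genes, 21 cyclins and CDK inhibitors and 18 mitosis genes held no member. Curvature was called positive in 5 (median 0.22), 8 (median 0.13) and 3 (median -0.05) of them, and negative in 0, 1 and 3. Beside the 26.0% of all genes called positive, a list such as SR and CLK (5 of 18) does not stand out. In all, 46 members were on at least 1 of the 19 lists.

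The members with the lowest curvature in the knockdowns were PPP2R2C (1.00, SE 0.336, adjusted p 0.0132), PARS2 (1.34, SE 0.538, adjusted p 0.0456), ZFP69 (1.41, SE 0.228), KLF11 (1.49, SE 0.280) and MAST4 (1.63, SE 0.188). PPP2R2C, a regulatory subunit of protein phosphatase 2A, was at 5.23% and 2.94% at 3 h in siControl but at 11.3% to 23.6% in the knockdowns, where every library was higher. At 6 h it was at 3.14% and 1.72% in siControl and at 1.44% to 12.8% in the knockdowns. The rule chose PPP2R2C on these siControl values, and it is named here for its low curvature in the knockdowns. Its difference from siControl follows in part from that choice and was not tested. PARS2, the mitochondrial prolyl-tRNA synthetase, was the only member without a positive curvature in every knockdown. In siIGF2BP1 it was -0.64, with 15.6% and 3.27% at 3 h and 0.73% and 0.34% at 6 h, and no read was counted in siIGF2BP3 replicate 2 at 6 h. Without siIGF2BP3 replicate 1 at 6 h its averaged curvature was -0.62 (adjusted p 0.665), and PPP2R2C without siIGF2BP1 replicate 1 at 6 h was at 0.25 (adjusted p 0.784).

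Reads at 6 h limited the precision of low members. The mean over the 6 knockdown libraries was 60.4 reads for the median member and ranged from 2.50 to 597, with 12 members under 10 reads. A late change of a member with few reads is therefore known only roughly, as the SE of BAMBI and IER3 show beside that of PHLDA1 (late change -0.79, SE 0.055), ID1 (-0.58, SE 0.056) and IRF2BP2 (-0.95, SE 0.059).

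SGK1, PPP1R3C and CSRNP1 were also among the 10 members ranked highest in siControl, and were on no list. SGK1, a serum- and glucocorticoid-induced kinase, was at 1.33% to 6.87% at 3 h and at 0.46% to 3.37% at 6 h in the knockdowns, and its curvature was 3.00 (SE 0.456, adjusted p 6.81e-10). PPP1R3C, which targets protein phosphatase 1 to glycogen, was at 2.03% to 5.04% and at 0.64% to 3.75%, with a curvature of 4.22 (SE 0.417, adjusted p 1.34e-22). For SGK1 and PPP1R3C the ranges overlapped between the times, and the mean at 6 h was 6.17 reads for SGK1 and 9.83 for PPP1R3C.

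The rule was also applied to each knockdown in place of siControl. It chose 106 of the 150 again in siIGF2BP1, 106 in siIGF2BP2 and 103 in siIGF2BP3 (70.7%, 70.7% and 68.7% of each list of 150). Of the members, 70 were chosen in every knockdown, 41 in 2, 23 in 1 and 16 in none. Counting those chosen again, 133 to 137 of the 150 were within the first 300 in each knockdown. The level and 3 h conditions were still met by 145, 145 and 146 of them. Some members that dropped out thus ranked far below the boundary or no longer met the conditions.

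Whether the course of loss differed between knockdowns was tested as the difference of their curvatures. No member passed an adjusted p of 0.05 in edgeR for siIGF2BP1 minus siIGF2BP2 (0.0307% of all genes did), for siIGF2BP3 minus siIGF2BP1 (0.0615%) or for siIGF2BP3 minus siIGF2BP2 (0.0461%), and DESeq2 called 0 as well. With no adjustment, 24, 19 and 19 of the 150 members had an edgeR p under 0.05, against 756, 424 and 564 of the 13018 genes tested. Unadjusted differences were thus a larger share of the members than of all genes. Median differences over the 150 were -0.02, -0.12 and -0.14, against -0.19, 0.04 and -0.15 for all genes. These comparisons hold 2 libraries per group and do not show that curvatures were equal. Beside siControl, which the rule used and which is shared by all 3 comparisons, the median difference in curvature was -0.17 for siIGF2BP1, -0.11 for siIGF2BP2 and -0.25 for siIGF2BP3 (all genes 0.07, 0.26 and 0.11), and no test was made.

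Levels before the drug differed between knockdowns for a minority of members. On the TMM scale at 0 h, 17 members differed between siIGF2BP1 and siIGF2BP2 (8 higher and 9 lower in siIGF2BP1), compared with 19.2% of all genes. Between siIGF2BP3 and siIGF2BP1 there were 14 (4 higher and 10 lower in siIGF2BP3; 14.3% of all genes), and between siIGF2BP3 and siIGF2BP2 there were 17 (3 higher and 14 lower; 9.52% of all genes). These shares of the 150 (11.3%, 9.33% and 11.3%) were below or near the background. A fit of the 0 h libraries alone called 36, 36 and 27 members (24%, 24% and 18% of the 150), against 24.5%, 19.5% and 13.2% of all genes. With ERCC scaling the split was 1 higher and 20 lower (283 and 1636 of all genes), 10 higher and 4 lower (1061 and 139), and 0 higher and 9 lower (231 and 233), so that the balance of directions moved with the scale. The ERCC scale moved the median of all genes to -0.12, 0.11 and -0.01.

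JUN, KLF6 and TNFAIP3 were lowest in siIGF2BP3. JUN, an AP-1 subunit, was at 58.5 and 58.9 CPM in siIGF2BP3, at 94.1 and 89.5 in siIGF2BP1, at 75.9 and 77.6 in siIGF2BP2 and at 79.7 and 71.7 in siControl. It was lower by 0.66 on the log2 scale in siIGF2BP3 than in siIGF2BP1 (SE 0.071, adjusted p 2.53e-08). KLF6, a zinc finger factor of the stress response in liver, was at 48.6 and 53.6 CPM in siIGF2BP3, against 75.4 and 75.2 in siIGF2BP1 and 69.7 and 69.1 in siIGF2BP2. The differences were -0.57 (SE 0.065, adjusted p 6.85e-08) and -0.43 (SE 0.065, adjusted p 1.09e-05). TNFAIP3 was at 49.98 and 51.6 CPM in siIGF2BP3, 72.4 and 71.4 in siIGF2BP1 and 68.6 and 72.1 in siIGF2BP2, with differences of -0.51 (SE 0.071, adjusted p 3.03e-06) and -0.46 (SE 0.071, adjusted p 1.88e-05). For each of the 3 genes the siIGF2BP3 libraries lay below all 6 others at 0 h, which is a description, since the genes were picked for a small p in these libraries.

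CCN1, a secreted matrix protein, was at 9.63 and 9.43 CPM in siIGF2BP3 and at 19.7 and 19.7 in siIGF2BP2, a difference of -1.03 (SE 0.163, adjusted p 2.38e-05). It stood at 13.0 and 12.1 CPM in siIGF2BP1 and at 16.0 and 14.7 in siControl. In siIGF2BP1, by contrast, FILIP1L and ARID5B were lowest. FILIP1L was at 21.0 and 21.5 CPM there, against 37.2 and 35.9 in siIGF2BP2, 25.6 and 23.5 in siIGF2BP3 and 36.2 and 34.2 in siControl. Its difference between siIGF2BP1 and siIGF2BP2 was -0.76 (SE 0.091, adjusted p 9.22e-08). ARID5B, a chromatin regulator, was at 13.3 and 12.9 CPM in siIGF2BP1 and at 21.8 and 21.5 in siIGF2BP2 (-0.71, SE 0.113, adjusted p 1.49e-05). PHLDA1, an apoptosis-linked gene, was at 190 and 192 CPM in siIGF2BP1, 240 and 238 in siIGF2BP2, 209 and 204 in siIGF2BP3 and 251 and 244 in siControl, and differed by -0.30 (SE 0.046, adjusted p 8.84e-06) between the first 2.

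**Figure D5:**
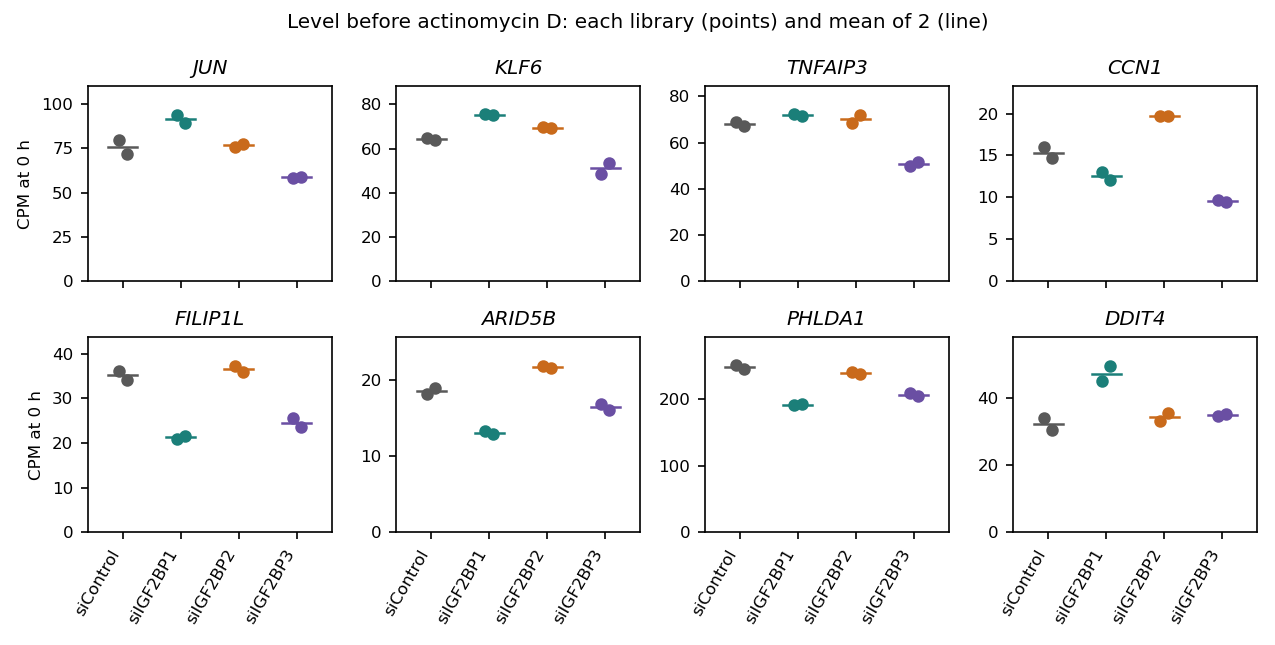
Level at 0 h in CPM (vertical axis, from 0) of 8 members in each condition. Points are the 2 libraries and lines their mean. JUN, KLF6, TNFAIP3 and CCN1 are lowest in siIGF2BP3, FILIP1L, ARID5B and PHLDA1 are lowest in siIGF2BP1, and DDIT4 is highest in siIGF2BP1 (45.0 and 49.6 CPM).

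The course of loss after the drug is given for the same genes. JUN had a curvature of 3.11 in siIGF2BP1, 3.56 in siIGF2BP2 and 3.54 in siIGF2BP3. KLF6 had 1.95, 2.33 and 2.27, and TNFAIP3 had 2.08, 2.59 and 1.96. CCN1 had 2.02, 1.84 and 1.30. None of these differences between knockdowns passed an adjusted p of 0.05, which does not show that they were equal.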

How the data were processed

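RNA was measured in 24 libraries of HepG2 cells (4 conditions, 3 time points, 2 replicates). Per the labels and the study's methods, the authors added ERCC RNA per amount of total RNA, selected polyadenylated RNA, made stranded libraries, trimmed reads with Trimmomatic 0.39, aligned them to hg38 with HISAT2 2.1.0 and counted them per gene with HTSeq on GENCODE release 29. The deposited values are raw counts. How HTSeq treated reads on several genes is not given in the sources used here. Its 5 summary rows (13.6% to 17.1% of a library) and 45 rows for the Y copy of pseudoautosomal genes were left out, and symbols were matched for 58207 of the 58676 genes. Since ERCC RNA was added after extraction, it corrects for neither cell number nor recovery. Its counting error was at most 0.443% (CV), and intervals cover counting error only where duplicates cannot be told apart. METTL1 knockdown libraries were not analysed here.

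Members were ranked with 0.5 added to counts. Tests used edgeR 4.0.16 (quasi-likelihood, two-sided, R 4.3.3) on the 18 knockdown libraries with 9 group means, for 13018 genes that reached a CPM of 1 in 2 or more libraries, and Benjamini-Hochberg adjustment over all of them. Library scale was the ERCC total, except TMM at 0 h. SE was derived from the F statistic. The siControl libraries chose the members and entered no test of them. Features came from GENCODE release 44 on the same build. On simulated counts of the averaged curvature over 13018 genes, 81% of genes given a curvature of 1, 97% of those given 2 and 0.05% of the unchanged were called. The altered genes were drawn at random from all genes, and counts from the spread that the model had fitted. These shares check the fit, and do not give the power for the members or the rate of false calls in the real libraries. Alternatives were TMM or library-size scaling, DESeq2 1.42.0, no count filter, all 24 libraries, only 0 h libraries, a replicate block and leaving out each library. Replicates differed by more than sampling noise in every group (chi-square per degree of freedom 3.2 to 8).

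Named genes were the 10 highest by the rule, the 8 highest and 5 lowest by knockdown curvature, the 6 with the highest CPM, up to 4 members per gene list, the 3 on each side of the boundary, and the 3 members with the smallest adjusted p per pair of knockdowns. JUNB, DDIT4, GDNF and the other members without a called late change were named after their values were seen. Members, lists and rules were chosen with earlier results of these data known.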

Additional observations from a re-analysis of the deposited data

Results flagged for a closer look

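At 0 h, 9 differences of members between knockdowns stood out because the difference between the groups itself passed an adjusted p of 0.05 in edgeR (TMM scale, 2 libraries per group) and had the smallest p of its pair. Between siIGF2BP1 and siIGF2BP2 these were FILIP1L (-0.76 on the log2 scale), ARID5B (-0.71) and PHLDA1 (-0.30). Between siIGF2BP3 and siIGF2BP1 they were JUN (-0.66), KLF6 (-0.57) and TNFAIP3 (-0.51), and between siIGF2BP3 and siIGF2BP2 they were CCN1 (-1.03), TNFAIP3 (-0.46) and KLF6 (-0.43). In each of the 9, both libraries of the lower group lay below both of the other. Their direction was the same in every fit that left out a library. Both traits largely follow from choosing the smallest p in these same libraries, and they add no separate support. KLF6 and TNFAIP3 were lower in siIGF2BP3 in both comparisons, which share the siIGF2BP3 libraries. Their cause was not tested.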

How the results depend on the processing

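Counts of members called for curvature and early loss were within 1.5 times of those reported under all alternatives, as was the count for late loss (108 with TMM to 141). Leaving out each knockdown library gave 147 to 150 members for the averaged curvature, 131 to 142 in siIGF2BP1, 139 to 146 in siIGF2BP2, 126 to 141 in siIGF2BP3 and 133 to 141 for late loss. For the differences in curvature it gave 0 to 2 members for siIGF2BP1 minus siIGF2BP2, 0 to 1 for siIGF2BP3 minus siIGF2BP1 and 0 for the last pair. At 0 h it gave 9 to 13 members for siIGF2BP1 minus siIGF2BP2 (9 without siIGF2BP1 replicate 1 or siIGF2BP2 replicate 2), 8 to 13 for siIGF2BP3 minus siIGF2BP1 (8 without siIGF2BP1 replicate 1) and 7 to 16 for siIGF2BP3 minus siIGF2BP2 (7 without siIGF2BP2 replicate 1). A fit of 0 h libraries alone called 36, 36 and 27 members (24%, 24% and 18%, against 24.5%, 19.5% and 13.2% of all genes). ERCC scaling called 9 in the last pair (6.0%, against 3.56% of all genes). The cause was not tested.

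With TMM scaling, which raises all late changes, those of SPRY1 (0.076), EIF4A1 (0.073), IER5 (0.091), IQCC (0.11), ZC3H12A (0.11) and JRKL (0.13) turned positive, without a call. IER3 (0.62, adjusted p 0.0431 in edgeR) and GDNF (0.51, adjusted p 0.0205) were called as rising. Leaving out single libraries, the late change of EIF4A1 ranged from -0.316 to 0.027 (positive without siIGF2BP1 replicate 2 at 3 h), that of IQCC from -0.476 to 0.056 (positive without siIGF2BP1 replicate 2 at 6 h), and the curvature of PARS2 from -0.62 (without siIGF2BP3 replicate 1 at 6 h) to 2.54. A late fall was called for EGR1 without siIGF2BP1 replicate 2 at 3 h (-0.59), siIGF2BP1 replicate 1 at 6 h (-0.74), siIGF2BP3 replicate 2 at 3 h (-0.52) or siIGF2BP3 replicate 1 at 6 h (-0.60), and for SPRY1 (-0.27) and IQCC (-0.48) without siIGF2BP1 replicate 1 at 6 h. The call of PPP2R2C was also lost under DESeq2 (1.02) and without siIGF2BP1 replicate 2 at 3 h (0.81), siIGF2BP2 replicate 1 at 3 h (0.86), siIGF2BP2 replicate 2 at 6 h (0.78) or siIGF2BP3 replicate 2 at 3 h (0.80). That of PARS2 was lost under DESeq2 (1.41), with no count filter (1.34) and without most single libraries. TMM scaling also ended the calls of averaged curvature for BAMBI (1.98, adjusted p 0.0544), PPP2R2C (0.84, adjusted p 0.0932) and PARS2 (1.18, adjusted p 0.239). Under the other choices of the rule, 113 (CPM minimum of 10) to 150 of the members were chosen, and 121 or 122 with 1 siControl replicate per time.

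Deviations of replicates with the same number were nearly uncorrelated between groups (-0.024 to 0.075 over 36 pairs). Most genes enter this with equal weight whatever their reads, so it does not show that time points were unpaired. With replicate number as a block, 150 members were called for averaged curvature, 141 for late loss and 17, 14 and 18 at 0 h.

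Depth limits members with few reads at 6 h: 12 had a mean under 10.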
